A study of Mus musculus with 8 samples.

Results

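The genes described here are 9 complement and coagulation regulators of the mouse: C3, C4b, C1ra, C1s1, Serping1, Tfpi, Thbd, F3 and Plat. They were taken by symbol and matched to Ensembl identifiers, and all 9 were found among the 47729 genes of the neural stem cell (NSC) count table and the 40562 genes of the astrocyte (AST) count table. RNA sequencing had been performed on cells of C57BL/6 mice, labelled as 10 weeks old, that were wild type (WT) or S89G-DMP1, a homozygous knock-in that replaces the serine carrying the glycosaminoglycan chain of dentin matrix protein 1 (DMP1) with glycine. There were 3 WT-NSC and 3 S89G-NSC libraries of neurospheres from the sub-ventricular zone, grown in serum-free medium, and 1 WT-AST and 1 S89G-AST library of primary cortical cultures, passaged in medium with fetal bovine serum. DMP1 was studied as a proteoglycan of the blood-brain barrier, and the comparison asks how loss of its glycosylation alters the transcriptome of these cells.

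Complement is a chain of serum proteins that tags surfaces for clearance. In its classical arm C1q binds a surface and carries the proteases C1r and C1s, which cleave C4 and C2 and so lead to cleavage of C3, the central protein of the system, while C1 inhibitor, the product of Serping1, blocks C1r and C1s. Coagulation starts when tissue factor, the product of F3, meets factor VII. Tissue factor pathway inhibitor (Tfpi) and thrombomodulin (Thbd) restrain it, and tissue plasminogen activator (Plat) turns plasminogen into plasmin, which dissolves fibrin. In brain, astrocytes are a known source of tissue factor and of C3, whereas thrombomodulin is best known from vascular endothelium.

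By GENCODE vM21 on GRCm38, C3 (17:57203970-57228136) and C4b (17:34728380-34743882) lie on the minus strand of chromosome 17. C1ra (6:124512405-124523443, plus strand) and C1s1 (6:124530345-124542359, minus strand) point at each other across 6901 bases of chromosome 6. Serping1 (2:84765387-84775444), Tfpi (2:84432855-84476775) and the single-exon Thbd (2:148404466-148408188) are on the minus strand of chromosome 2. F3 (3:121723537-121735048) and Plat (8:22757727-22782844) are on plus strands. Of the 9 members, 5 had an upstream window in the RefSeq promoter table of GRCm38.p6. The last 150 bases before the start site are shown for C3, which was higher in the S89G-AST library, and for Tfpi and F3, which were lower, on the strand of each gene and 5′ to 3′, with matches to the searched motifs in capitals.
C3 promoter, chr17:57228137-57228286, minus strand: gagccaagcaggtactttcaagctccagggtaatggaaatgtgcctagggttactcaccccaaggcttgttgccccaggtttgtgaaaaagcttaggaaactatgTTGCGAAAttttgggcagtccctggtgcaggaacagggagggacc
Tfpi promoter, chr2:84476760-84476909, minus strand: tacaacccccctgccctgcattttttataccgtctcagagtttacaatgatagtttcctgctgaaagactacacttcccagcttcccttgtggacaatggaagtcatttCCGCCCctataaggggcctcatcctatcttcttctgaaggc
F3 promoter, chr3:121723387-121723536, plus strand: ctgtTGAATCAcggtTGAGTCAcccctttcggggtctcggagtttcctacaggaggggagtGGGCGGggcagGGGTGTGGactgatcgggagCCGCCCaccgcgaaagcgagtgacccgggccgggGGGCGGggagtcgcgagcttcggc

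The motifs were searched on both strands of the full 250 bases before each RefSeq start. These starts can differ from the GENCODE positions above. The C1ra window (6:124512371-124512620) lies mostly within the gene as placed there, and the Tfpi window overlaps the start of its gene slightly. C3 held a match to the C/EBP motif TTGCNNAA from base -45 to -38, a motif present in 9.56% of the 32851 RefSeq promoter windows, and C1s1 held another from -242 to -235. F3 held 2 matches to the AP-1 motif TGANTCA (6.75% of windows), 3 to the GC box GGGCGG (32.7%) and 1 to the KLF motif CCACACCC (3.2%). Tfpi held 1 GC box, from -41 to -36. C1ra held none of the 7 motifs, and none of the 5 windows held the STAT motif TTCNNNGAA (7.02%), the interferon motif GAAANNGAA (7.13%) or the E-box CACGTG (6.02%). The F3 window had a GC content of 70.0%, against a median of 52.4% over all windows and 48.0% to 52.0% in the other 4. These matches describe the letters only, and no binding was measured.

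Between 2354615 and 2588130 reads were counted on genes in each NSC library, 14008670 in WT-AST and 13016924 in S89G-AST. Dmp1, the targeted gene, had 18, 21 and 16 counts in WT-NSC against 6, 3 and 5 in S89G-NSC, and 2 in WT-AST against 119 in S89G-AST, so its order between genotypes was opposite in the 2 cell types. Of 11 astrocyte markers, 8 were at least 2-fold higher and 1, S100b, at least 2-fold lower in S89G-AST than in WT-AST. Gfap and Aqp4 had 90 and 8 counts in WT-AST against 901 and 4051 in S89G-AST, while Glul (4247 and 3709) and Gja1 (1165 and 1913) were well counted in both. The 14 counted fibroblast and meningeal markers summed to 6349 CPM (counts relative to a library total scaled by TMM factors) in WT-AST and 2245 CPM in S89G-AST, and 10 of them were at least 2-fold lower in S89G-AST. The astrocyte libraries also differed in sex genes, with 12172 Xist counts and 0 to 3 counts of each of 4 Y-linked genes in WT-AST, against 74 Xist counts and 525 to 1277 Y-linked counts in S89G-AST. Every AST difference below is 1 library against 1, so genotype, sex, cell makeup and culture cannot be told apart in it. In such bulk samples fewer cells of a type and less RNA per cell cannot be told apart either.

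In astrocyte cultures, 6 of the 9 members were lower in S89G-AST than in WT-AST by 2-fold or more, 2 were higher by as much and C1s1 lay within 2-fold. Over the 15680 genes that reached 10 counts in one or the other library, the shares past 2-fold were 12.8% lower and 17.3% higher. These are 2010 and 2713 genes, and they became 1515 and 3487 when counts were scaled by library size only. The median log2 ratio of the members was -1.70, and that of all counted genes was 0.01. The members had been chosen with these values known, so the counts are a description of the list, without a test. The split of 6 and 2 was the same when counts were scaled by library size only and with the deposited FPKM values (reads per kilobase of transcript, relative to the library total).

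The largest differences were in the inhibitors of coagulation. Thbd, the thrombin receptor that turns thrombin towards activation of protein C, had 11526 counts (910 CPM) in WT-AST and 83 counts (5.76 CPM) in S89G-AST. It was 158-fold lower in S89G-AST, with a 95% interval of 127 to 198 that, like those below, covers counting error only. Tfpi, the inhibitor of the tissue factor and factor VIIa complex, had 5504 counts (435 CPM) in WT-AST and 80 counts (5.56 CPM) in S89G-AST, a 78.2-fold lower level (62.7 to 98.8). Together these genes made up 37.0% (Thbd) and 17.6% (Tfpi) of the members' summed CPM in WT-AST, and 0.774% and 0.746% in S89G-AST.

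F3, the cellular trigger of coagulation, had 7435 counts (587 CPM) in WT-AST and 2593 counts (180 CPM) in S89G-AST, which was 3.26-fold lower (3.12 to 3.41). Since F3 was lower by far less than Tfpi, the ratio of F3 to Tfpi counts within a library was 1.35 in WT-AST and 32.4 in S89G-AST. The quotient of these ratios, into which no library scaling enters, was 24.0 (19.1 to 30.4). The ratio of F3 to Thbd counts was likewise 0.645 in WT-AST and 31.2 in S89G-AST.

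Plat, which starts fibrinolysis, went the other way, with 1751 counts (138 CPM) in WT-AST and 5380 counts (374 CPM) in S89G-AST, 2.70-fold higher (2.56 to 2.85). Its share of the members' summed CPM was 5.61% in WT-AST and 50.2% in S89G-AST, while the sum itself was 2462 CPM and 745 CPM. The ratio of Plat to F3 counts within a library was 0.236 in WT-AST and 2.07 in S89G-AST, a quotient of 8.81 (8.21 to 9.46).

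**Figure D1:**
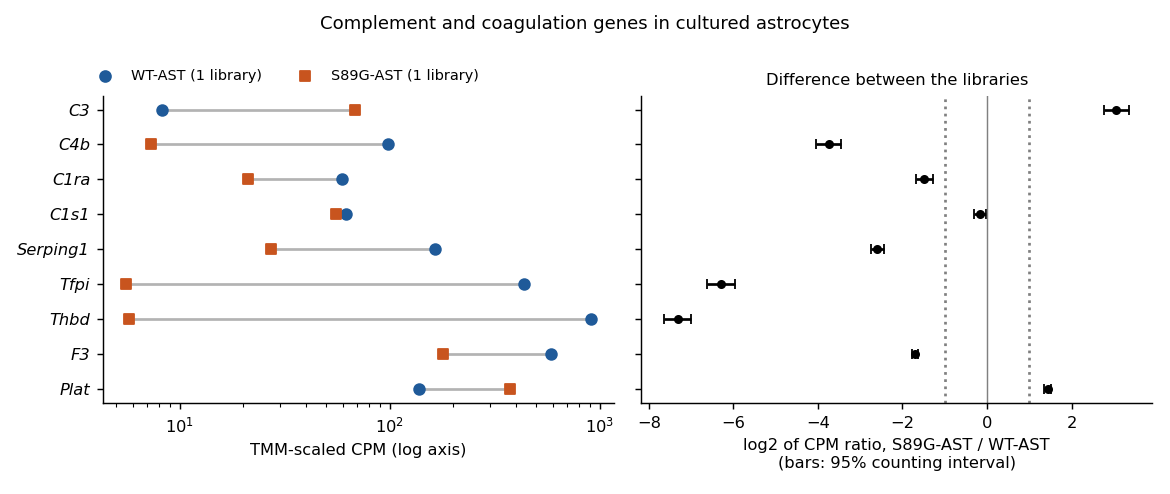
Left, TMM-scaled CPM of the 9 members on a log axis in the WT-AST library (circles) and the S89G-AST library (squares). Right, log2 of the CPM ratio with its 95% counting interval and dotted lines at 2-fold, where Thbd and Tfpi lie farthest to the left, C3 and Plat to the right, and C1s1 between the dotted lines.

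The complement members did not share a direction. C3 had 104 counts (8.21 CPM) in WT-AST and 985 counts (68.4 CPM) in S89G-AST, 8.33-fold higher (6.80 to 10.3). C4b, which encodes the protein cleaved by C1s, had 1241 counts (98.0 CPM) in WT-AST and 105 counts (7.29 CPM) in S89G-AST, 13.4-fold lower (11 to 16.6). The ratio of C3 to C4b counts was thus 0.0838 in WT-AST and 9.38 in S89G-AST, a quotient of 112 (83.5 to 150).

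The genes of the C1 proteases were less different. C1ra had 751 counts (59.3 CPM) in WT-AST and 306 counts (21.3 CPM) in S89G-AST, 2.79-fold lower (2.44 to 3.20). C1s1 had 786 counts (62.1 CPM) and 801 counts (55.6 CPM), a log2 ratio of -0.16 that became 0.13 without the TMM factors. The 2 neighbouring genes thus parted, with 1.05 counts of C1s1 for each of C1ra in WT-AST and 2.62 in S89G-AST, a quotient of 2.50 (2.11 to 2.96).

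Serping1, whose product inhibits both proteases, had 2087 counts (165 CPM) in WT-AST and 393 counts (27.3 CPM) in S89G-AST, 6.04-fold lower (5.42 to 6.74). Within a library the ratio of C1s1 to Serping1 counts was 0.377 in WT-AST and 2.04 in S89G-AST, and that of C1ra to Serping1 was 0.360 and 0.779. Counts of both protease genes were therefore higher relative to those of Serping1 in the S89G-AST library, although C1ra itself was lower. No protein was measured in these libraries.

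Close copies of some members could share their reads. Of all stretches of 50 bases in the longest coding transcript, 35.2% of those of C4b also occur in C4a, 48.0% of those of C1ra in C1rb and 24.3% of those of C1s1 in C1s2. C4a had 14 counts in WT-AST and 20 in S89G-AST, C1rb 1 and 0, and C1s2 0 in both. How reads that match both copies were assigned is not given in the sources used here, so the levels of C4b, C1ra and C1s1 are uncertain to that extent. C1s1 shares 576 of its 3129 exon bases with the antisense gene Gm16567, which had 0 counts in all 8 libraries.

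Markers of other cell types moved with these differences. The endothelial markers summed to 1126 CPM in WT-AST and 83.9 CPM in S89G-AST, and of the 8 counted 5 were lower and 1 was higher in S89G-AST by 2-fold or more. In WT-AST nearly all of that sum was Eng (11770 counts, 157 in S89G-AST) and Cdh5 (1917 and 23). In S89G-AST most of it was Flt1 (790 counts, 404 in WT-AST) and Kdr (184 and 76). Cldn5 (0 counts in both), Tie1 (1 in WT-AST and 0 in S89G-AST) and Pecam1 (16 and 7) were at or near 0. Of the 9 counted mural markers 4 were at least 2-fold lower and 1 higher, and the sum was 3379 CPM in WT-AST and 4059 CPM in S89G-AST, but 2657 and 1590 CPM without Acta2. In the other direction, the 11 astrocyte markers summed to 514 CPM in WT-AST and 1551 CPM in S89G-AST. The 8 counted neural progenitor markers summed to 733 and 2136 CPM, and 7 of them were at least 2-fold higher in S89G-AST. In WT-AST most of the astrocyte sum was Glul (335 CPM, 258 in S89G-AST). Nearly all of the progenitor sum in WT-AST was Nes (713 CPM, 1369 in S89G-AST), so these sums understate the differences of most other markers. Microglia and macrophage markers summed to 696 and 968 CPM. Of these 10 markers 3 were at least 2-fold higher in S89G-AST (Cx3cr1, P2ry12 and Aif1) and 1 was lower (Tmem119). Cx3cr1 had 320 counts in WT-AST and 2372 in S89G-AST, and Tmem119 had 1434 and 699. This list includes Itgam and C1qa, which also belong to the wider complement list below. The choroid plexus and ependyma markers summed to 1.82 CPM in WT-AST and 217 CPM in S89G-AST, nearly all of it Foxj1 (6 and 3063 counts). Neither the part of these cell types nor that of the fibroblast and meningeal markers in the members' levels was tested.

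**Figure D2:**
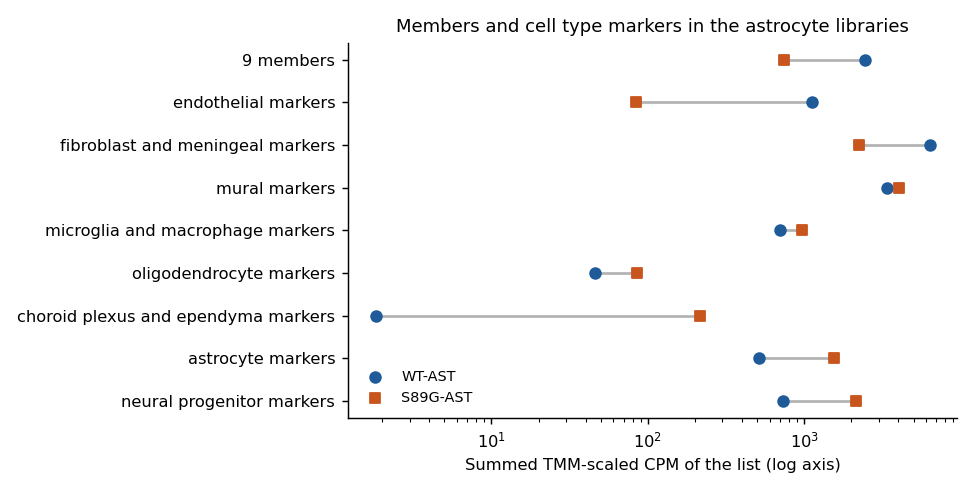
Summed TMM-scaled CPM (log axis) of the 9 members and of 8 lists of cell type markers in WT-AST (circles) and S89G-AST (squares), 1 library each. The members, endothelial and fibroblast and meningeal lists lie lower in S89G-AST, and the other 6 lists lie higher, the mural list through Acta2.

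Beyond the members, 74 further genes of complement, coagulation and fibrinolysis were looked up in the same libraries, and all but Klkb1 were found. Of the 42 that reached 10 counts, 18 were lower and 4 higher in S89G-AST by 2-fold or more. Over all 15680 counted genes the shares were 12.8% lower and 17.3% higher, and they apply to the counts by role below as well. This list too was chosen with earlier results known, so its counts are a description. Its median log2 ratio was -0.26, and was the same with genes at or under 3 counts set to 3. Without the TMM factors, 15 were lower and 6 higher by 2-fold or more, and the median turned to 0.03. All 5 counted anticoagulants were at least 2-fold lower, or 4 of 5 with library size alone, where Pros1 had a log2 ratio of -0.91. Serpine2 (protease nexin-1, a thrombin inhibitor) went from 1898 to 543 CPM and Pros1 (protein S, the cofactor of activated protein C) from 365 to 159 CPM. The other 3, named after their values were seen, were Procr, Serpind1 and Tfpi2, with 524, 351 and 164 counts in WT-AST and 32, 6 and 3 in S89G-AST.

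In fibrinolysis 4 of 7 counted genes were at least 2-fold lower and 1 higher. The urokinase gene Plau was 3.62-fold lower (116 and 31.9 CPM) and its receptor Plaur 2.05-fold lower (66.9 and 32.6 CPM, and less than 2-fold lower with library size alone). A2m, a broad protease inhibitor, was 32.8-fold higher (4.11 CPM in WT-AST and 135 CPM in S89G-AST). Among the coagulation factors, F5, the cofactor of factor Xa, was 7.02-fold lower (49.3 and 7.02 CPM), and 5 of the 13 coagulation factor genes had 0 counts in both libraries. Of the thrombin receptor and receptor-like genes, the receptor-like F2rl1 was 11.1-fold higher, from 15 to 189 counts. The thrombin receptor gene F2r lay within 2-fold, with 4779 counts in WT-AST and 5174 in S89G-AST.

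Complement inhibitors other than Serping1 were mixed, with 3 of 8 counted genes at least 2-fold lower and 1 higher. Clu, an inhibitor of the terminal complex that astrocytes are known to make, was 5.16-fold higher (84.2 and 435 CPM). Masp1, a protease of the lectin pathway, was 2.27-fold lower (69.2 and 30.5 CPM), and less than 2-fold lower with library size alone. Hc, the gene of C5, had 2 counts in WT-AST and 68 in S89G-AST, a ratio of 29.9 with a counting interval of 7.97 to 252. By contrast the 3 C1q genes and all 5 counted complement receptors, which microglia express, were within 2-fold, except that 1 receptor gene, Itgam, passed 2-fold with library size alone.

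**Figure D3:**
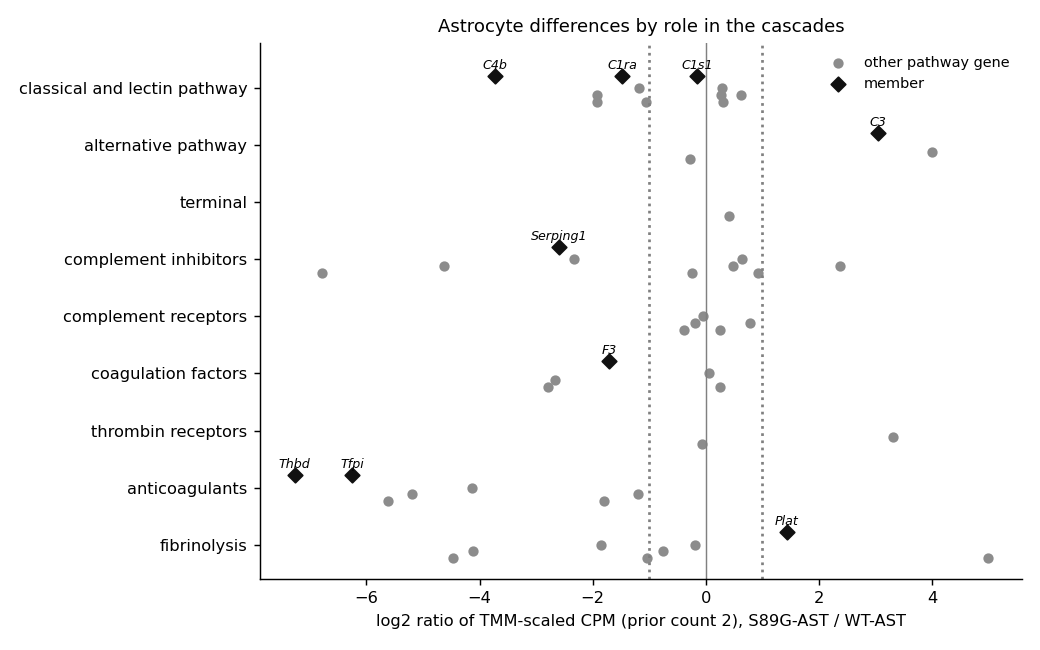
Log2 ratio of S89G-AST over WT-AST (scaled CPM, prior count 2) for the members (black diamonds, named) and the 42 counted genes of the wider list (grey circles), by role, with dotted lines at 2-fold. On this scale all anticoagulants lie left of the lower line and all complement receptors between the lines, and 4 grey circles with at most 3 counts in 1 library are placed by the prior count.

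In NSCs most members were barely transcribed, and no difference between genotypes passed the test. Only Plat and F3 had enough counts to be tested, and 0 of these 2 reached a Benjamini-Hochberg adjusted p of 0.05 in edgeR's quasi-likelihood test, in which 15.8% of the 11194 tested genes did (7.08% higher and 8.76% lower in S89G-NSC). At an unadjusted p under 0.05 the count in that test was also 0, and DESeq2 and limma called 0 at the adjusted threshold.

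Plat was the leading member in NSCs. It had 697, 836 and 770 counts in the 3 WT-NSC libraries and 693, 664 and 802 in the 3 S89G-NSC libraries. The ranges overlapped, with 309 ± 15.6 CPM in WT-NSC and 299 ± 19.8 CPM in S89G-NSC (SD, n = 3 each). The log2 fold change of S89G-NSC over WT-NSC was -0.04 with a 95% interval of -0.16 to 0.08 (edgeR quasi-likelihood test, adjusted p = 0.688). An exact two-sided permutation test over the 6 libraries gave p = 0.5, where the smallest p that 3 against 3 allows is 0.1. As a fold of S89G-NSC over WT-NSC the interval runs from 0.892 to 1.05, and the 2.70-fold difference between the astrocyte libraries lies outside it.

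F3 had 32, 28 and 29 counts in WT-NSC and 31, 21 and 35 in S89G-NSC. The S89G-NSC libraries spread more widely and enclosed the WT-NSC values, with 12 ± 1.3 CPM in WT-NSC and 12 ± 2.7 CPM in S89G-NSC. The log2 fold change was 0.02 (-0.42 to 0.45; edgeR quasi-likelihood test, adjusted p = 0.976; exact permutation p = 1). As a fold the interval runs from 0.746 to 1.37, so changes of F3 within these bounds remain compatible with these libraries.

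The other 7 members had at most 9 counts in any NSC library and failed the filter on low counts. C4b had 1, 3 and 7 counts in WT-NSC and 8, 9 and 4 in S89G-NSC, so the groups overlapped, and the ratio of the summed counts was 1.97 with a counting interval of 0.910 to 4.53. Tfpi had 2, 5 and 2 counts in WT-NSC and 3, 4 and 8 in S89G-NSC, and Thbd 4, 3 and 1 against 2, 1 and 4. Their ratios were 1.72 (0.707 to 4.47) and 0.905 (0.279 to 2.86), so that no direction can be read at this depth. The lower ends of these intervals, 0.707 for Tfpi and 0.279 for Thbd, leave out falls as large as the differences between the astrocyte libraries, counting error alone considered.

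The complement genes C3, C1ra, C1s1 and Serping1 had 0 or 1 count in every NSC library. A count of 0 in 1 library allows a level of up to 1.16 to 1.27 CPM, depending on its depth. With no filter, when 21433 genes were tested, no member passed. C4b came nearest, with a log2 fold change of 0.96 and an adjusted p of 0.351 in edgeR's quasi-likelihood test.

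**Figure D4:**
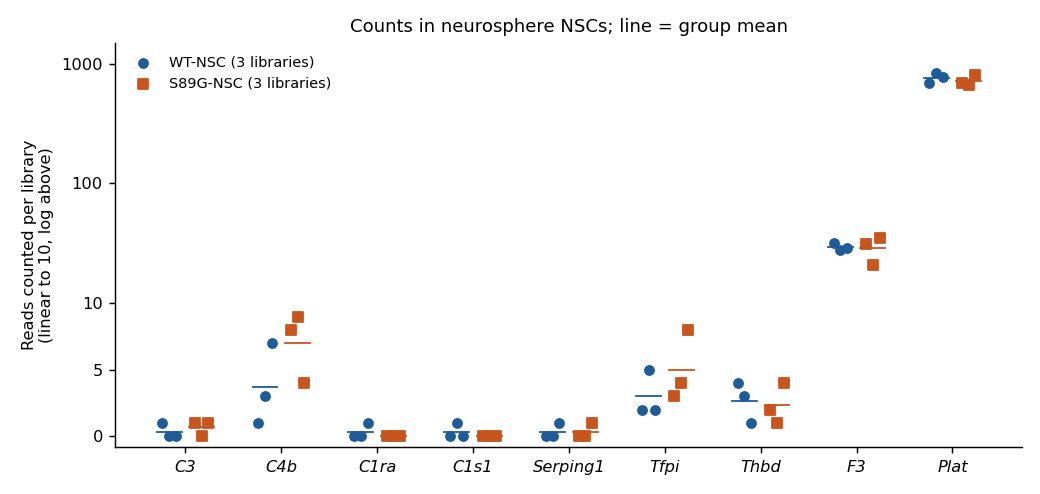
Reads counted on each member in the 3 WT-NSC (circles) and 3 S89G-NSC (squares) libraries, on an axis that is linear to 10 and logarithmic above, with group means as lines. Plat and F3 stand above 20 counts in every library, the other 7 members at or below 9, and the groups overlap for every member.

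Levels were divided by the length of the longest coding transcript to order the members in each group. The tables were made with different tools and scaled separately, so levels across them are set side by side without a test. In WT-AST the order was F3 (314 CPM per kilobase), Thbd (244), Tfpi (110), Serping1 (93.2), Plat (54.8), C1s1 (21.1), C1ra (19.9), C4b (18.2) and C3 (1.60), where the neighbours C1s1, C1ra and C4b differed little. In S89G-AST it was Plat (148), F3 (96.2), C1s1 (18.9), Serping1 (15.4), C3 (13.3), C1ra (7.13), Thbd (1.55), Tfpi (1.40) and C4b (1.36), the last 3 being close together. The initiator F3 and the activator Plat thus ranked above every complement gene in S89G-AST.

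In NSCs Plat led in both genotypes, at 122 ± 6.16 CPM per kilobase in WT-NSC and 119 ± 7.84 in S89G-NSC (SD, n = 3 each). F3 followed at 6.40 ± 0.721 and 6.43 ± 1.43. All 7 others had means under 0.6 CPM per kilobase, and many of their ranges overlapped on few counts, so their full order was not settled. In S89G-NSC, C4b, Tfpi and Thbd lay above C3, C1ra and C1s1 in every library. In WT-NSC, of C4b, Tfpi and Thbd, only Tfpi did so. Plat made up 93.8% to 95.4% of the members' summed CPM in the 6 NSC libraries, and the profile of members in S89G-AST, led by Plat and F3, had the same first 2 genes. The deposited FPKM values use 1 length per gene. For 8 of the 9 members that length equals the rounded mean of all annotated transcripts, such as 1667 bases for C3, whose longest coding transcript has 5136 bases, so the lengths of coding transcripts were used here instead.

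Of the 74 further genes of the cascades, 73 were found in the NSC counts, and 35 had 0 counts in all 6 libraries. In NSCs 10 were tested and 4 passed, 2 higher and 2 lower in S89G-NSC. Over all 11194 tested genes 15.8% passed, 7.08% higher and 8.76% lower. The list was chosen with earlier results of these data known, so its counts are a description. A2m rose by a log2 fold change of 1.10 (SE 0.23, adjusted p = 1.7e-04, edgeR quasi-likelihood test), from 7.79 ± 1.96 CPM in WT-NSC to 16.8 ± 2.47 CPM in S89G-NSC. Masp1 rose by 0.61 (SE 0.20, adjusted p = 0.0245), from 11.6 ± 1.48 to 17.6 ± 1.26 CPM. This call was lost with DESeq2 (adjusted p = 0.211) and when any of 4 of the 6 libraries was left out, S89G-NSC 1 or 2 or WT-NSC 2 or 3 (adjusted p from 0.0595 to 0.124).

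Serpine2 fell by 0.33 on the log2 scale (SE 0.05, adjusted p = 4.4e-08, edgeR quasi-likelihood test), from 2174 ± 25.4 CPM in WT-NSC to 1730 ± 67.4 CPM in S89G-NSC, and was the most abundant gene of the list in these cells. S100a10, a plasminogen receptor subunit, fell by 0.39 (SE 0.07, adjusted p = 2.8e-05), from 179 ± 10.6 to 136 ± 12.8 CPM. With limma on the deposited TPM values neither of these passed at a pseudocount of 1 (adjusted p = 0.543 for Serpine2 and 0.0934 for S100a10) or 0.1, nor did Masp1, and A2m passed only at a pseudocount of 1. For all 4 genes the groups did not overlap, which was so for 30.7% of all tested genes. Clu, Cr1l, Cfp, F2r, Pros1 and Anxa2 did not pass, with log2 fold changes from -0.47 for Clu (adjusted p = 0.133) to 0.08 for F2r. No member passed the test, so no genes of like pattern were sought.

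**Figure D5:**
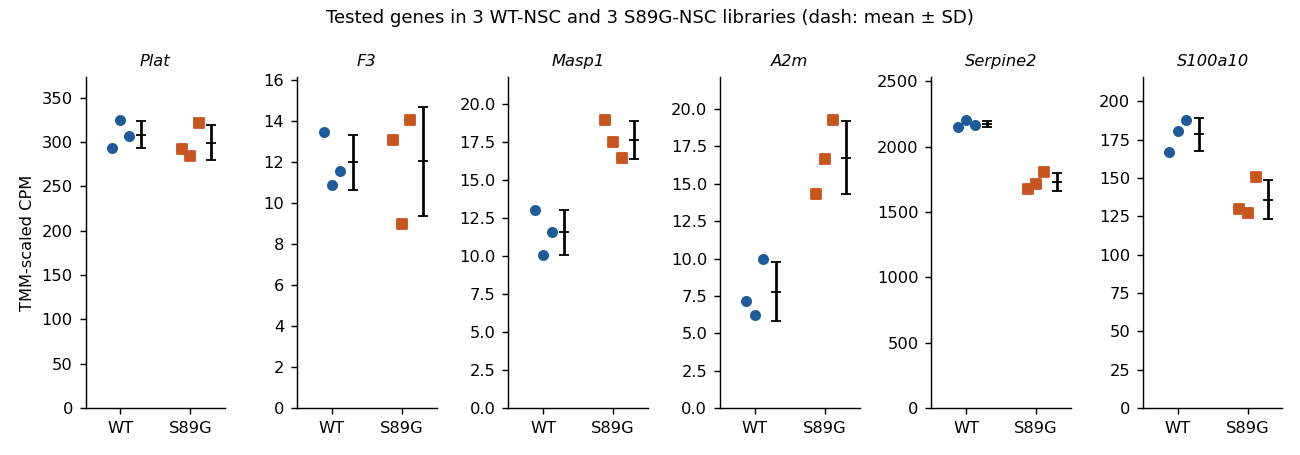
TMM-scaled CPM in each WT-NSC (circles) and S89G-NSC (squares) library for the 2 tested members and the 4 genes of the wider list that passed, with mean and SD (n = 3) beside the points and each axis starting at 0. The groups overlap for Plat and F3 and are separate for Masp1, A2m, Serpine2 and S100a10.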

How the data were processed

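RNA sequencing of 8 mouse libraries was examined in 4 tables. For each cell type the authors deposited unnormalized read counts per gene, with FPKM values beside them for the astrocytes and TPM values for the NSCs. The submitters' processing notes name TopHat2 2.0.9 and Bowtie2 2.0.6 for the astrocytes, and HISAT2, StringTie, featureCounts and GRCm38 for the NSCs. The astrocyte counting program and whether counting used strand are not given in the sources used here.

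NSC genes with few counts were removed by filterByExpr, TMM factors were applied, and genotypes were compared in edgeR 4.0.16 (quasi-likelihood test, genotype as the only term, Benjamini-Hochberg over all tested genes, threshold 0.05) in R 4.3.3. Astrocyte libraries were compared without a test, by the log2 ratio of scaled CPM (TMM, prior count 2) of each gene that reached 10 counts in one or the other library, called at 2-fold. Intervals of astrocyte folds are exact conditional intervals at 95% and cover counting error only. The floor is 3 counts. The labels do not say that the NSC triplicates are separate cultures, so the p-values measure the spread between these libraries, which may be technical. Within genotypes, pairs of NSC libraries differed by a chi-square of 1.07 to 1.51 per gene, where counting alone gives 1. The NSC step was tested on simulated data.

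Members and lists were chosen with earlier results of these data known. All members are named, as are listed genes called in NSCs and, in astrocytes, up to 8 per direction with the largest CPM, except that some are not reported here. In the deposited TPM values Sox2 is listed at 0 in 5 libraries, so TPM and FPKM served for alternatives only. Promoter windows are from RefSeq, and gene positions from GENCODE. Alternatives were DESeq2 1.42.0, limma 3.58.1 on log2 TPM, other scalings, filters and fold thresholds, each NSC library left out, and a replicate block.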

Additional observations from a re-analysis of the deposited data

Results flagged for a closer look

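Masp1, the gene of a lectin pathway protease, differed in opposite directions in the 2 cell types. Its log2 fold change was 0.61 in NSCs. All 3 S89G-NSC libraries (41 to 45 counts) lay above all 3 WT-NSC libraries (26 to 31 counts). Groups did not overlap for 30.7% of all tested genes. The NSC call of Masp1 was lost with DESeq2 (adjusted p = 0.211), with limma and when some single libraries were left out. Between the single astrocyte libraries the log2 ratio of Masp1 was -1.18, or -0.89 with library size alone. The difference between the cell types was not tested. Dmp1, the targeted gene, also differed in opposite directions, with a log2 fold change of -1.90 in NSCs (SE 0.38, adjusted p = 1.3e-04, edgeR quasi-likelihood test), where the groups did not overlap. Its log2 ratio between the astrocyte libraries was 4.78 with a prior count of 2, on 2 counts in WT-AST and 119 in S89G-AST, a ratio of 52.3 with a counting interval of 14.2 to 437. This difference was not tested either.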

How the results depend on the processing

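The NSC count of members called was 0 under all 15 alternatives, and the fold change of Plat stayed between -0.10 and -0.01. That of F3, 0.02, changed sign when any of 4 of the 6 libraries was left out (range -0.11 to 0.18). With DESeq2, 851 of all genes were called in NSCs in place of 1773, and with limma 145 (log2(TPM + 1)) or 116 (log2(TPM + 0.1)). Of the wider list limma called 1 and 0 in place of 4. The cause was not tested. The replicate numbers do not pair the NSC libraries (correlations of same-numbered libraries from -0.017 to 0.028), and a fit with a replicate block called 1845 genes and 0 members. In astrocytes the count of members at least 2-fold different was 8 under 7 of 8 alternatives and 5 at 4-fold. Of the wider list 14 in place of 22 differed at 4-fold, and 14 when 10 counts were required in both libraries, where fewer genes are counted. Over all genes the count of 4723 became 7294 at 1.5-fold, 2167 at 4-fold and 3066 with 10 counts in both libraries. With library size alone, the median log2 ratio of all counted genes was 0.30, and 3487 genes were at least 2-fold higher and 1515 lower in place of 2713 and 2010. C1s1 then changed sign, and no other member did. Depth limits the NSC comparison to Plat and F3, and the astrocyte libraries have no replicates.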
